A study of Mus musculus with 2 samples.

Results

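The clustered protocadherin genes lie in a single array on mouse chromosome 18, in the order alpha, beta and gamma. Members were all protein-coding genes of GENCODE M21 on that chromosome whose symbol is Pcdha, Pcdhb or Pcdhg followed by a number, with a letter a, b or c between them where the gene has one. This gave 57 gene records with 56 symbols among 21938 protein-coding gene records, because 2 records carry the symbol Pcdha11; they are called its upstream and downstream record here. There were 14 alpha, 22 beta and 21 gamma members. All of them are read from the plus strand, and together they span chr18:36930184-37841873 in the mm10 build, which is 0.912 Mb. Of the members, 52 were variable genes and 5 were C-type genes (Pcdhac1, Pcdhac2, Pcdhgc3, Pcdhgc4 and Pcdhgc5).

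Clustered protocadherins are adhesion proteins of the cell surface, best known from neurons, where different cells choose different isoforms and matching combinations on 2 neurites lead to self-avoidance. Each variable exon carries its own promoter and is spliced to constant exons at the end of the alpha or gamma cluster, while the beta genes have no constant exons. C-type genes are expressed more uniformly across neurons than the variable genes. Most variable promoters are known for a conserved sequence element close to the start site that CTCF binds. Published descriptions of the clusters list Pcdhac2, Pcdhb1, Pcdhgc4 and Pcdhgc5 as promoters without that element. Loops from CTCF at promoters to CTCF sites of opposite orientation at distant enhancers are a known feature of the alpha cluster.

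The data were CTCF ChIP-seq of whole stomach from newborn mice of the strain B6NCrl (postnatal, age 0 days), with 1 group of 2 replicates. In ChIP-seq an antibody, here against the zinc finger protein CTCF, pulls down bound chromatin, and the recovered DNA is sequenced. The labels name 1 donor and 1 tissue sample for both replicates, so the spread between them may be technical, and sex was not collected. Control libraries were not analysed here. Stomach holds epithelium, muscle and nerve cells, and in a bulk tissue a weak peak in all cells and a strong peak in few cells cannot be told apart. No expression was measured, so the tissue label could not be checked against marker genes. The 74283 optimal peaks, those of the authors' optimal list after their reproducibility cut-off, had a median signal of 76.5, in the units of the authors' peak caller. Of these, 72160 had a summit within 100 bp in both replicate lists. Below, a promoter peak of a gene is one whose summit lies within 1 kb of an annotated transcription start site (TSS) of that gene. Signals from the list of replicate 1 or replicate 2 are given beside the optimal value, but the lists were not scaled to each other: the median ratio of replicate 1 to replicate 2 was 1.33 over all optimal peaks. Depth is unknown, since the files give no read counts.

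To ask whether a peak holds a CTCF site and on which strand, a matrix of 19 columns was fitted to sequence under the top 1000 peaks of chromosome 1 by optimal signal; 998 of them aligned. Its consensus is shown because the strand of this site is what the results on orientation rest on. Capitals mark the 7 of 19 positions that carry at least 1 bit of information.

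CTCF matrix consensus: CCaccAGggGGCactatag

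A peak was said to hold the motif when the best match within 50 bp of its summit, on either strand, scored at least 10.35 bits, a score that 1% of 34968 background windows of the same length reached. Of all optimal peaks, 71.6% held it. Sequences of the protocadherin sites themselves are not printed.

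An optimal promoter peak was present at 51 of the 57 members, or 89.5% (exact Clopper-Pearson 95% interval 78.5 to 96.0). Over all protein-coding genes the share was 45.6%. The shares of the subclusters lay within each other's intervals: 12 of 14 alpha, 20 of 22 beta and 19 of 21 gamma members had one. By promoter class, 49 of 52 variable members had a peak (94.2%, interval 84.0 to 98.8), and 2 of 5 C-type members did (40.0%, interval 5.27 to 85.3). The intervals treat genes as independent draws, which neighbouring paralogs are not. In the conservative list, the stricter set of reproducible peaks, 50 members had a promoter peak, against 43.7% of all coding genes, and Pcdha1 was the member lost. In the relaxed lists of single replicates, 56 members had a peak in replicate 1, against 72.5% of all coding genes, and 55 in replicate 2, against 71%.

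**Figure D1:**
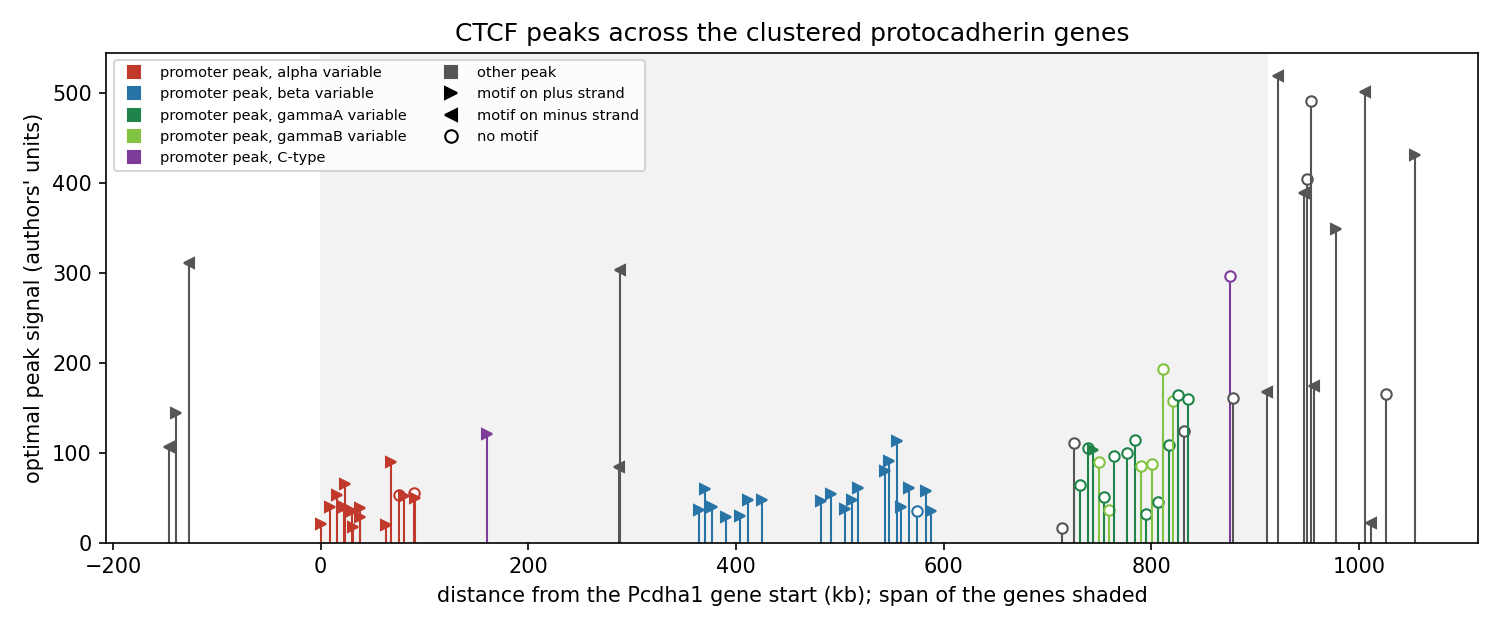
Optimal CTCF peaks across the protocadherin array and 150 kb to either side: signal in the authors' units against distance from the Pcdha1 gene start in kb, colours for the class of the gene whose promoter holds the peak (grey for other peaks), filled arrowheads for a motif on the plus or minus strand and open circles for no motif. The arrowheads at promoters all point along the genes, while nearly all gamma promoters have open circles. The tallest peaks, up to 518.3, stand beyond the gamma end.

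The 6 members without an optimal promoter peak fell into C-type genes and others. Pcdhac2, the last alpha promoter, had a relaxed peak of signal 4.37 in replicate 1, none in replicate 2, and 9.12 in the pooled list. Pcdhgc4 had 7.81 in replicate 1, 4.66 in replicate 2 and 10.2 in the pooled list. Pcdhgc5 had 6.43, 4.31 and 8.36. The strongest Pcdhgc4 summit lay at -467 bp from the start site in replicate 1 and the pooled list, but at -297 bp in replicate 2. Replicate 1 also had a Pcdhgc4 summit of 7.72 at -20 bp, and the pooled list one of 5.68 at 546 bp. The pooled values were below the lowest optimal signal of any promoter peak of a member, 17.8, which is on the same scale. Pcdhb1, the first beta gene, had no promoter peak in any of the 5 lists. These 4 genes are the ones listed above as lacking the element. Pcdha7 and Pcdhb9 are the other pair. Pcdha7 had a relaxed peak just upstream of its start site of 8.90 in replicate 1, 8.62 in replicate 2 and 18.0 in the pooled list. In its exon it had 10.9 in replicate 1 and 15.4 in the pooled list, at 568 bp, and 4.65 in replicate 2, at 711 bp. It held a motif of score 11.9 in its promoter and one of 18.2 in its exon. Pcdhb9 had 8.64 in replicate 1, 10.7 in replicate 2 and 22.3 in the pooled list, and its promoter held a motif of score 15.2. Unlike the C-type values, the upstream pooled signals of Pcdha7 and Pcdhb9 were above the lowest optimal promoter signal of 17.8.

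Signal at the promoters differed more between subclusters than presence did. Gamma members with a peak had a median optimal signal of 99.1 (31.6 to 296.8), alpha members 51.9 (19.5 to 120.7) and beta members 47.3 (28.1 to 113.2). Over all members the median was 55.1, below the 83.6 of all coding genes with a promoter peak. The order was the same in replicate 1, with medians of 59.8 for gamma, 28.8 for alpha and 23.1 for beta, and in replicate 2, with 38.4, 22.2 and 20.8. The ranges of the subclusters overlapped. Above the median of all optimal peaks were 14 gamma, 3 beta and 2 alpha members, 19 of 51 in all, against 52.4% of all coding genes with a promoter peak. Within gamma, the A genes (12 of 12 with a peak, median 100.8) and the B genes (6 of 6, median 88.7) overlapped over most of their range.

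**Figure D2:**
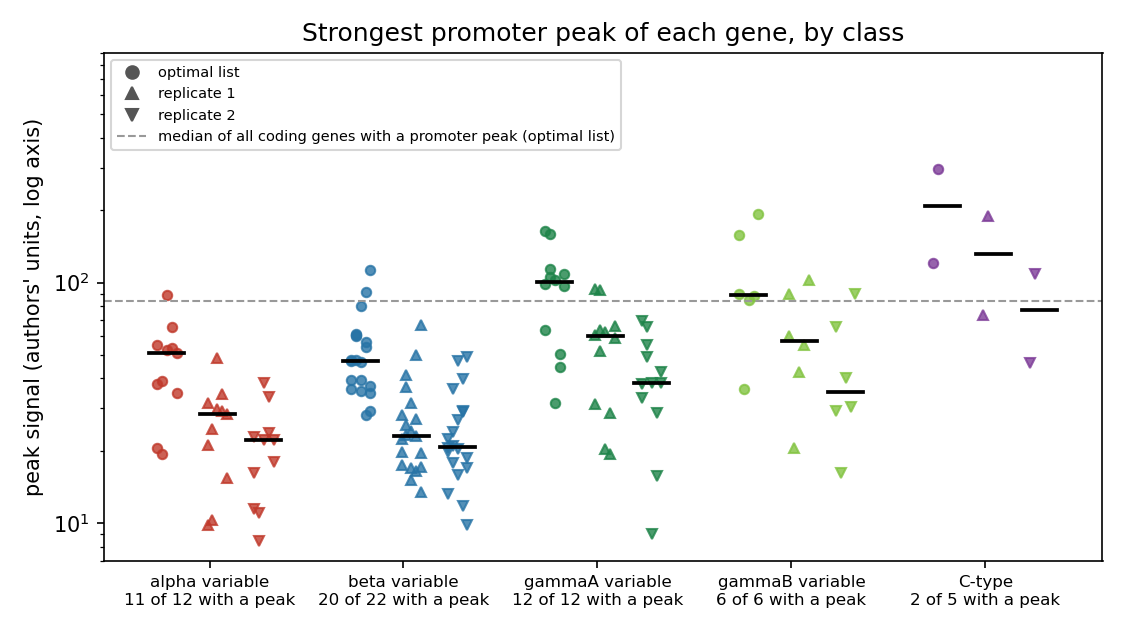
Signal of the strongest promoter peak of each member by class (log axis, authors' units), from the optimal list (circles) and at the same site in replicate 1 and replicate 2 (triangles up and down); black bars are medians, and the dashed line is the optimal median of all coding genes with a promoter peak. The gamma medians of 100.8 and 88.7 lie above the dashed line at 83.6, and the alpha and beta medians below it.

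The C-type genes split into strong peaks and no optimal peak. Pcdhgc3 had the strongest promoter peak of the array (chr18:37806187-37806472, 296.8 in the optimal list), with 189.5 in replicate 1 and 108.1 in replicate 2. Its summit lay at -40 bp from the start site. Pcdhac1 had the strongest promoter peak of the alpha cluster (chr18:37089912-37090052, 120.7), with 73.3 in replicate 1 and 46.4 in replicate 2. In each replicate both peaks exceeded every variable promoter of their own cluster. Their neighbours Pcdhac2, Pcdhgc4 and Pcdhgc5 are the C-type genes without an optimal peak given above.

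Among variable gamma genes the strongest were Pcdhgb6 (chr18:37741917-37742127), with an optimal signal of 192.4, 102.5 in replicate 1 and 89.6 in replicate 2, and Pcdhga11 (chr18:37755594-37755785), with 164.1, 94.5 and 69.1. Both lie in the last stretch of the variable gamma genes. From Pcdhgb6 on, the 6 gamma members with a peak ranged from 108.8 to 296.8 with a median of 161.7, while the 13 before it ranged from 31.6 to 114.4 with a median of 87.8. That border was drawn after the values were seen. The weakest gamma peaks were those of Pcdhga8 (31.6) and Pcdhgb2 (36.1), inside the cluster.

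In the beta cluster the strongest promoter peaks were neighbours. Pcdhb17 (chr18:37484891-37485022) had an optimal signal of 113.2, with 66.4 in replicate 1 and 48.9 in replicate 2. Pcdhb16 (chr18:37477662-37477788) had 91.2, with 49.8 and 39.9. Pcdhb15 (chr18:37473410-37473512) had 79.6, with 31.6 and 47.1. Replicate 1 was the higher at Pcdhb17 and Pcdhb16 and the lower at Pcdhb15. The weakest beta peaks were those of Pcdhb5 (28.1) and Pcdhb6 (29.3).

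In the alpha cluster Pcdhac1 was followed by Pcdha9 (chr18:36997715-36997791), with an optimal signal of 89.1, 48.6 in replicate 1 and 38.3 in replicate 2. Next was Pcdha4 (chr18:36953081-36953376), with 65.7, 34.6 and 33.3. The Pcdha4 peak was not at the start site but in the exon behind it. Pcdha8 had the weakest (19.5) and Pcdha1 the next (20.6), and both had signals of at most 11.5 in either replicate.

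Signal and position along the array were loosely related. Spearman's rho between gene order and optimal signal was 0.54 over the 51 members with a peak, 0.52 over the 12 in alpha, 0.25 over the 20 in beta and 0.55 over the 19 in gamma. Without the C-type genes it was 0.56 over 49 members, 0.38 over 11 in alpha and 0.47 over 18 in gamma. These are descriptions without a test, since neighbours share sequence and library. The values over all members mix position with subcluster, because gamma comes last and has the highest median signal. In beta the value was -0.02 in replicate 1 and 0.57 in replicate 2, so the replicates gave different orders there. For gamma they gave 0.62 and 0.53.

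The peaks sat in a narrow band before the start sites. Of the 51 members with a peak, 47 had the strongest summit up to 250 bp upstream of the nearest start site, against 36.3% of all coding genes with a promoter peak. The median position was -57 bp, counted from the start site with upstream negative, and the quartiles were -78.5 and -39.5 bp. The exceptions were Pcdhb17 (131 bp downstream), Pcdhga12 (120 bp downstream), Pcdha8 (537 bp downstream) and Pcdha4 (554 bp downstream). The 1 kb limit decided little: the farthest optimal summit inside it, of Pcdha6, was 559 bp from a start site, and the nearest one outside it lay 2543 bp behind that of Pcdhgc3. By annotation, 45 of the 55 promoter peaks had their summit in an intron, 5 in a coding exon, 4 in an untranslated region and 1 outside any gene body. For 16 of the 45, all at beta promoters, no gene body other than 3 long read-through models (Gm42416, Gm37013 and Gm37388) covered the summit. Without these models 17 promoter peaks lay outside any gene body. The other 29 of the 45 still lay in a gene body, which at Pcdhb12 and Pcdhga1 was that of a gene that is not protein-coding.

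**Figure D3:**
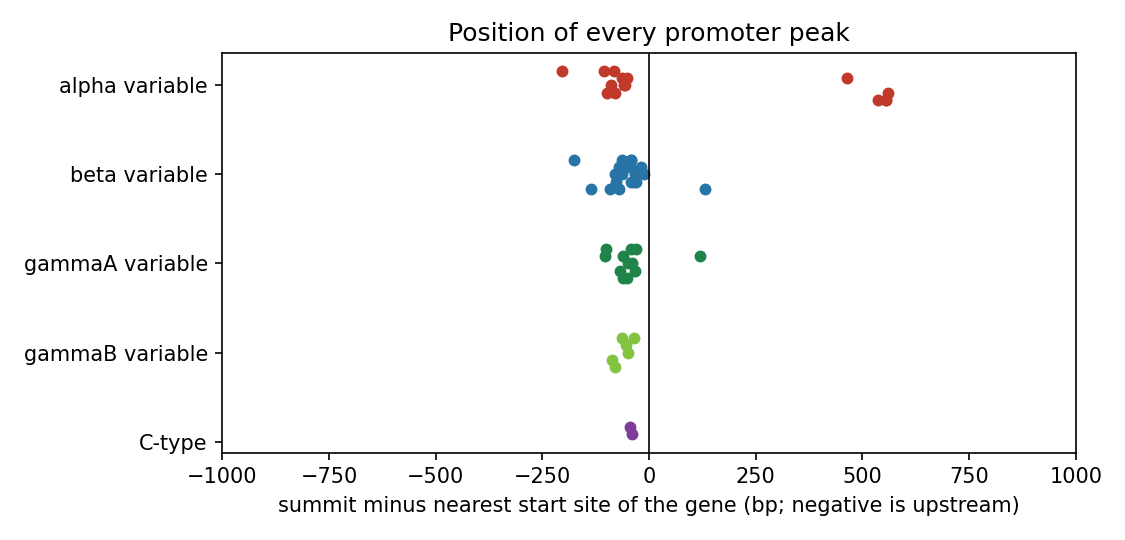
Position of the summit of each of the 55 optimal promoter peaks relative to the nearest start site of its gene, in bp (negative is upstream), by class. Most points lie in the band just upstream of 0, and 5 alpha points lie 464 to 559 bp downstream.

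Alpha genes had further sites inside their exons. Exonic CTCF sites are a known feature of variable alpha genes, whose proteins start in that same exon. A motif on the gene strand lay 300 to 899 bp after the 5′ end of the gene in 11 of 12 variable alpha members, against 7.93% of all coding genes. It lay at 465 to 611 bp, with a median of 569 bp and a median score of 17.2. The same window held it in 1 of 22 beta and 2 of 18 variable gamma members. The window was set after the exonic peaks had been seen.

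Occupancy of the exonic sites was uneven. Optimal peaks had their summit in this window at 5 of the 12 variable alpha members, against 10.2% of all coding genes. At Pcdha4 the exonic signal was 65.7, with 34.6 in replicate 1 and 33.3 in replicate 2. Its own upstream peak had 39.4. Pcdha12 had 49.8 in the exon, with 22.4 and 26.9 in the replicates, beside 55.1 upstream. Pcdha6 had 29.0, Pcdha8 19.5 and Pcdha5 17.8. In the pooled relaxed list 10 of the 12 had a summit in the window, against 34% of all coding genes. Pcdha1 had the best exonic match, at 23.4 bits, and no exonic peak in any list. Pcdha4, Pcdha5, Pcdha6 and Pcdha12 were the only 4 members with 2 or more optimal promoter peaks, against 15.8% of all coding genes.

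Orientation was uniform. At the strongest promoter summit, 30 of 51 members held the motif, against 49.8% of all coding genes with a promoter peak. On the gene strand were 30 of these 30, against 53.9% of all coding promoter peaks with a motif. Counting every promoter peak, 34 of 55 held the motif and 34 of 34 had it on the gene strand. Its centre lay within 10 bp of the summit in 28 of them. No such share over other peaks with a motif was computed to set beside this. The scores were moderate: 3 of 51 members reached the stricter 17.52 bits, which 0.1% of background windows reach, against 13.8% of all coding genes with a promoter peak.

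The motif divided the subclusters unlike the signal. It was at the summit in 10 of 12 alpha, 19 of 20 beta and 1 of 19 gamma members. The median best score was 13.2 bits in alpha, 13.6 in beta and 2.89 in gamma. Pcdhga3, at 13.2, was the gamma member with a motif. Within 100 bp of its summit, Pcdhga12 also held one, on the plus strand, with a score of 15.3. The cluster with the highest median signal had the lowest median score: Pcdhgc3, at 296.8, scored -2.71, and Pcdhgb6, at 192.4, scored 3.45. Across the 51 members, Spearman's rho between score and signal was -0.30, a description in which the subclusters form separate clouds. It was -0.14 within alpha, 0.37 within beta and 0.00 within gamma. In the window from 250 bp before to 50 bp after the start site, whether a peak was there or not, 31 of 57 members held the motif, against 12.4% of all coding genes.

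**Figure D4:**
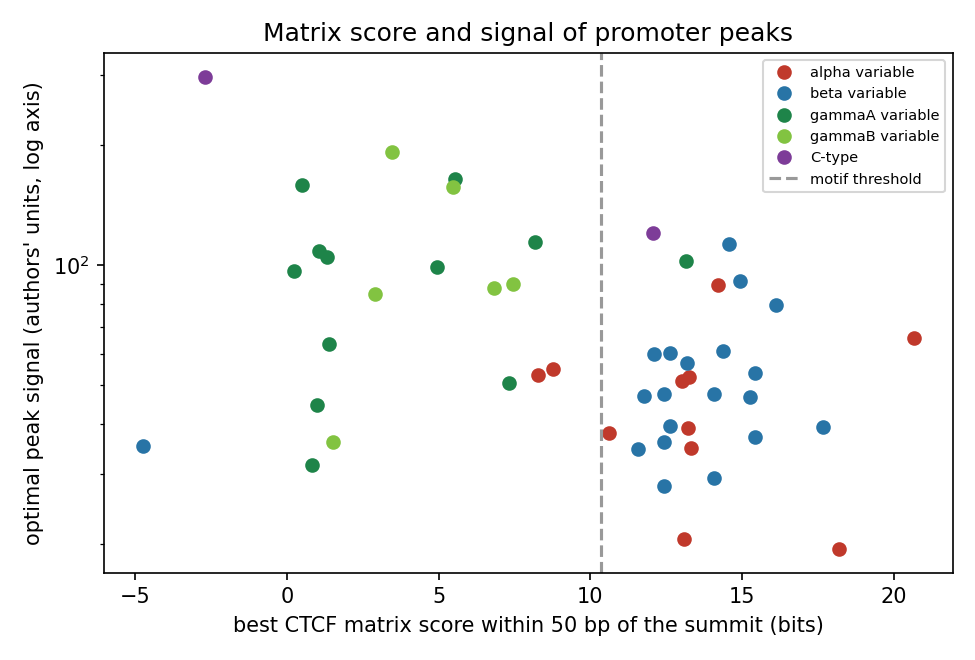
Optimal signal of the strongest promoter peak (log axis, authors' units) against the best CTCF matrix score within 50 bp of its summit (bits), for the 51 members with a peak, coloured by class; the dashed line is the motif threshold of 10.35. Gamma genes lie left of the line except Pcdhga3, and beta genes lie right of it except Pcdhb20, at -4.76, whose motif is not wholly within 50 bp of the summit. The same holds for the motif of the gamma gene Pcdhga12, at 0.51.

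The gamma summits shared shorter letters with the other subclusters. The 5 letters CGCTG were searched on both strands after the sequences under the summits had been seen; where the matrix also matches they can overlap its match. They were on the gene strand within 50 bp of the summit in 43 of 51 members, against 19.7% of all coding genes with a promoter peak. All 19 gamma members with a peak had them, with 18 of 20 beta and 6 of 12 alpha members. Their centre lay between -15 and 16 bp of the summit in those 43, a distance not computed for other genes. Of the 21 members whose summit had no matrix motif, 18 had the letters, against 22.6% of all such coding genes, and these 18 were all gamma. The members with neither were Pcdhb20, Pcdha12 and the upstream record of Pcdha11. Pcdhb20 did hold a motif on the gene strand, of score 15.5, within 100 bp of its summit and in its promoter window. On the other strand 2 of 51 summits had the letters, against 18.1% of all coding genes with a promoter peak. In the promoter window, 41 of 57 members had them on the gene strand, against 26.3% of all coding genes. A match to 5 letters is a description and not a binding site.

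Beta motif sites repeated each other. The 19 sites at beta promoter peaks comprised 14 distinct sequences of 19 bases, and 9 sites shared theirs with another beta gene. The 14 alpha sites were 14 distinct sequences. Recent copies could affect which reads map. Of the 32-base words within 500 bp of the start site, a median of 21.2% recurred elsewhere in the genome in alpha members. In beta the median was 0%, with up to 15.8%, at Pcdhb12. In gamma it was 1.55%, and the highest share of any member was 29.0%, at Pcdhgb4. Of the other gamma B genes, Pcdhgb5 had 22.5%, Pcdhgb6 19.6% and Pcdhgb7 18.9%, while Pcdhgb1 and Pcdhgb2 had 0%. What these repeats do to the signals in any subcluster was not tested.

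Base composition differed by promoter class. The promoter window had a median of 39.7% G and C over members, against 55.0% over all coding genes. Variable members ranged from 30.7 to 49.0% with a median of 39.5%, and C-type members from 47.3 to 62.0% with a median of 54.7%, so the classes overlapped. The ratio of observed to expected CpG dinucleotides was 0.52 in both members and all coding genes.

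The replicates did not weigh the members alike. Replicate 1 had the higher signal at 37 of the 51 members and replicate 2 at 14. Among all coding genes with a promoter peak in both, replicate 2 was the higher in 6.68%, and among optimal peaks of signal 20 to 100, where most members fall, in 17.6%. The members where replicate 2 was higher were 2 alpha, 9 beta and 3 gamma genes. All 9 beta cases lie from Pcdhb10 to Pcdhb22, where the median ratio of replicate 1 to replicate 2 was 0.846 over 13 genes. From Pcdhb2 to Pcdhb8 replicate 1 was higher in 7 of 7, with a median ratio of 1.52. The most extreme were Pcdhb10, with 16.9 in replicate 1 and 27.0 in replicate 2, and Pcdhb3, with 41.5 and 17.9. The border between these stretches was drawn after the ratios were seen. With 1 value per replicate at each gene, no test of the stretch was possible, and its cause was not tested.

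**Figure D5:**
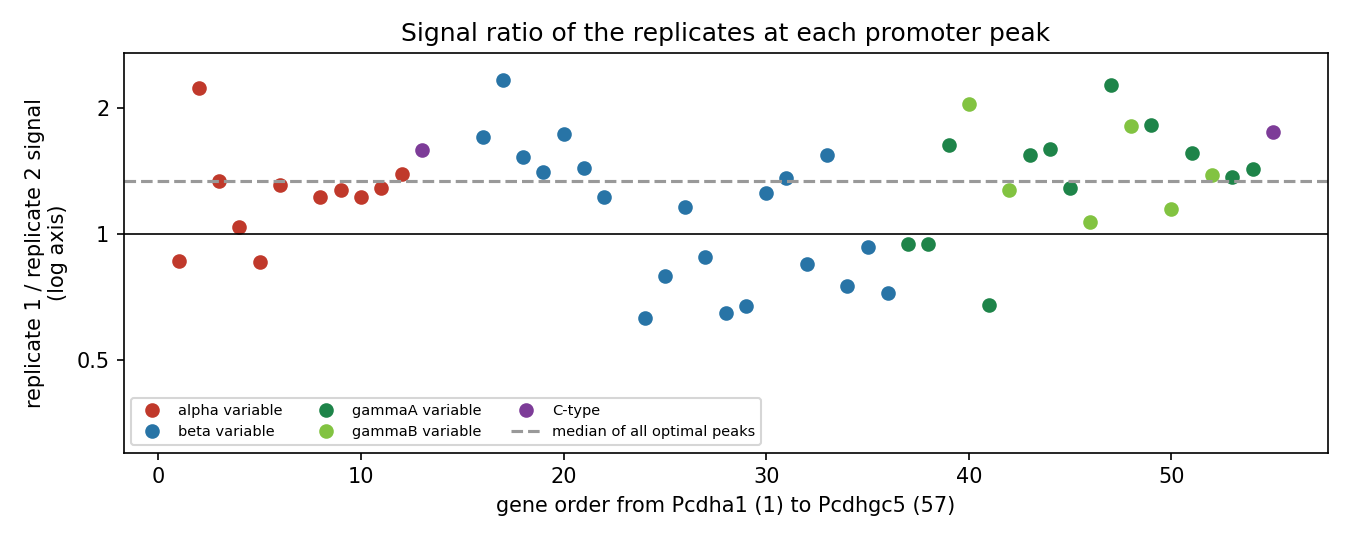
Ratio of replicate 1 to replicate 2 signal (log axis) at the strongest promoter peak of each member, in gene order from Pcdha1 to Pcdhgc5, coloured by class; the solid line is a ratio of 1 and the dashed line the median of all optimal peaks, 1.33. The 9 beta points below 1 all belong to genes from Pcdhb10 on.

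The span held 61 of the 2258 optimal peaks of chromosome 18, or 66.9 per Mb. No density of other regions was computed to set beside this. Of the 61, 60 were also conservative. Within 1 kb of a member's start site were 54 of the 61. The 55th promoter peak, of Pcdha1, has its summit just before the span. Median signal was 124.2 in the other 7 and 53.5 in the 54. The motif was on the plus strand in 33 of the 54 and on the minus strand in 0. Of the other 7, 3 had it, and all 3 on the minus strand. Among span peaks with a motif, strand followed position: plus at promoters and minus away from them.

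An intergenic peak here is one over 1 kb from every member's start site and outside every annotated gene body. There were 0 in the span, and 3 once the long read-through models Gm42416, Gm37013 and Gm37388 were left out. A pair of them stood between the alpha constant exons and Pcdhb1, with summits 934 bp apart, where the known alpha cluster enhancer with its pair of reverse CTCF sites lies; the peaks were not matched to that element by coordinates. The stronger (chr18:37218303-37218552) had an optimal signal of 302.8, with 179.3 in replicate 1 and 125.6 in replicate 2. In the optimal list it exceeded every promoter peak of the array; in replicate 1 that of Pcdhgc3 was higher. The weaker (chr18:37217434-37217565) had 83.9, with 51.1 and 30.5. Both held the motif on the minus strand, with scores of 13.6 and 17.7. The third peak (chr18:37644131-37644426), at the start of Taf7, a subunit of a general transcription factor, had 16.7, with 10.01 in replicate 2, and no motif. In replicate 1 no summit lay within 100 bp of it, though the peak was also in the conservative list.

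The remaining 4 were tied to other features. A peak in the 3′ untranslated region shared by the gamma genes (chr18:37841363-37841579) had 167.2, with 99.5 and 66.2 in the replicates, and a minus motif of score 22.2. A peak in a Pcdhgc3 coding exon (chr18:37808869-37809064) had 160.8, with 93.8 and 65.0. The peak at the start of Pcdhgb8, annotated as a polymorphic pseudogene and so no member, had 124.2, with its summit at -135 bp and a score of 5.46, like its gamma neighbours. The last (chr18:37655504-37655670) lay at the start of the long non-coding RNA 3222401L13Rik with 110.9 and a plus match of 10.2, just under the threshold.

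Stronger peaks lay beyond the array. The 150 kb after the gamma end held 10 optimal peaks with a median of 396.3, and 7 of them exceeded every member's promoter peak. The strongest (chr18:37852111-37852523) was 10.4 kb after the last member, in an intron of Diaph1, a formin that builds actin filaments; it had 518.3, with 285.7 in replicate 1 and 234.9 in replicate 2. The next (chr18:37935498-37935821), near the start of Diaph1, had 501.2, with 289.2 and 213.6. The one after (chr18:37883456-37883887), again in a Diaph1 intron, had 491.2, with 278.0 and 217.2. The motif was on the minus strand in 5 of the 10 and on the plus strand in 2. Before Pcdha1, the 150 kb held 3 peaks besides its own promoter peak, the strongest with 311.2 (chr18:36802901-36803135) and a minus motif; the other pair, at Hars and Hars2, had 143.9 and 106.7.

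Other gene families gave a setting for these counts. Of 12 non-clustered protocadherins, which are single genes of the same superfamily, 8 had an optimal promoter peak, with a median of 112.3; the strongest were at Pcdh1 (543.9), Pcdh7 (178.5) and Pcdh18 (174.5). Of 14 genes for CTCF, cohesin and silencing factors known to act on clustered protocadherins, 10 had one, with the strongest at Pds5a (385.3), Smc3 (374.2) and Stag1 (370.1). Of 39 Hox genes, an array of another kind, 13 had one, led by Hoxa7 (469.2), Hoxb5 (402.3) and Hoxa5 (392.3). Of 120 type 2 vomeronasal receptor genes, a family where single cells also choose among members, 0 had one. In the order given, the shares were 66.7%, 71.4%, 33.3% and 0%, against 45.6% of all coding genes. The differences between these families were not tested.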

How the data were processed

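CTCF ChIP-seq peaks of newborn stomach were analysed from 5 lists the authors deposited: relaxed peaks of replicate 1, of replicate 2 and of both pooled (300000 per list as deposited), and the optimal and conservative sets. Each peak carries a signal value, a −log10 q-value, a score and the offset of its summit, all as the authors deposited them. For the aligner, the caller, their versions and the reproducibility cut-off, the sources used here do not give any. Coordinates are mm10, per the labels, and sequence was read from GRCm38.p6, the same assembly. The signal, score and −log10 q-value were used as deposited and not rescaled. Signals of the single-replicate lists are therefore not on a common scale with each other or with the other lists. At the members, a promoter peak shared by the optimal, conservative and pooled lists has the same signal in each. The q-value is at a ceiling for most members and was not compared. Signals at optimal summits were taken from the replicate lists within 100 bp.

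Summits were assigned to GENCODE M21 start sites within 1 kb. The matrix was built and scanned with numpy 2.4.6 under Python 3.11.15 and tested on simulated sequence with planted sites. With 1 group, no test between conditions was made, and all values are descriptions. Every member was accounted for; full values are given for the 3 strongest of each subcluster, all C-type genes, genes at the 1 kb limit, and the 3 strongest intergenic and flanking peaks. Members, lists and rules were chosen with earlier results of these data known. Alternatives were other distances, lists, thresholds, gene models and single replicates.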

Additional observations from a re-analysis of the deposited data

How the results depend on the processing

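Of 59 recalculated values for 9 results, 49 stayed within 1.5 times the reported count, or within 1 SD (1.94) of the 2 single-replicate medians for the signal. With only the strongest 37141 optimal peaks, members with a promoter peak numbered 19, of which 2 alpha and 3 beta; the span held 25 peaks, 6 of them with a plus motif, and the median promoter signal was 105.1. This follows from the lower signals of the members. At the stricter motif score, plus-strand motif peaks of the span numbered 4. Leaving out the 3 read-through gene models, an alternative chosen after seeing the data, gave 3 intergenic peaks instead of 0, both counted over 1 kb from every member's start site. With a single replicate's strongest peaks, as many as the optimal list holds, members with a promoter peak numbered 49 to 51 and the median signal was 26.97 to 29.72, on each replicate's own scale. No paired analysis was possible because there was 1 group. Depth is unknown, weak or absent peaks are not shown to be unbound, the replicates may be technical, and genes that resemble each other may share reads.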
